A study of Mus musculus with 9 samples.

Results

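The genes described here are 53 listed cell cycle and proliferation genes, 20 that act around DNA replication in S phase and 33 that act in mitosis. Each gene was read through the probe set that carried only its symbol, and through the brightest such probe set by mean signal where there were several. Of the 53 genes, 51 were measured among 22180 symbols, and 47 of them lay above a filter on low signal and were tested with 16635 genes. Ccnb1 and Ccne2 had no probe set with only their symbol and were not analysed here. Gins1, Foxm1, Bub1 and Hmmr lay below the filter, and Kif2c reached it only through its tumour values.

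Lesions were laser-captured from fixed, paraffin-embedded prostates of male mice aged 12 months, of mixed strain, and amplified RNA of each capture was hybridised to 1 Affymetrix whole-transcript mouse array. Control HG-PIN is high-grade prostatic intraepithelial neoplasia, a dysplastic lesion within the gland, and its mice carry PbCre without the T-3Mb-Erg allele. T-3Mb-Erg HG-PIN and T-3Mb-Erg tumour, a poorly differentiated adenocarcinoma, are from mice with PbCre and T-3Mb-Erg/+, which have the T-3Mb-Erg allele on 1 chromosome. Both genotypes share PbCre, a Cre recombinase under the probasin promoter that acts in prostate epithelium, and the control samples are lesions, not normal tissue. Each group holds 3 arrays from separate mice. The tumours and the T-3Mb-Erg HG-PIN came from the same 3 mice, with the same replicate numbers, so there were 6 mice in all. No tumour of a control mouse was measured, so lesion and genotype cannot be told apart between tumours and control HG-PIN.

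A cell that commits to division loads the MCM helicase onto replication origins with the help of Cdc6 and Cdt1, and E2F transcription factors then switch on the genes of DNA synthesis. Later in the cycle a second set of genes, for the mitotic cyclins, kinases, kinetochores and spindle, is transcribed under B-Myb and FoxM1 and held silent in resting cells by the DREAM complex. In prostate lesions, transcripts of both sets are widely used as signs of proliferation. In a bulk capture, fewer cycling cells and less RNA per cycling cell cannot be told apart.

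Promoters are shown first, because the shares of their elements set the replication genes beside the mitotic genes in a way that does not use the arrays. The windows printed are examples. All their genes but Mcm5 are listed below as higher in tumours than control HG-PIN at an unadjusted p under 0.05. The windows run from 250 bases before to 50 after the RefSeq gene start, in assembly GRCm38.p6, and are printed from 5′ to 3′ on the gene's strand, with letters that match a searched motif in capitals. Motifs were read on both strands. The CHR element was searched as TTTGAA and, in a second form that is a palindrome, as TTTAAA. The CCAAT box was searched by its own letters. The E2F site was searched as TTCGCGC, in a second form as TTGGCGC and in a further form as TTCCCGC. The subunit genes of ribonucleotide reductase, Rrm2 (chr12:24708004-24708303, plus strand) and Rrm1 (chr7:102441445-102441744, plus strand), and the helicase gene Mcm5 (chr8:75109259-75109558, plus strand) stand for replication. Ccnb2, which encodes cyclin B2 (chr9:70421505-70421804, minus strand), Ube2c, the ubiquitin-conjugating enzyme of the anaphase-promoting complex (chr2:164769679-164769978, plus strand), and Top2a, topoisomerase II alpha (chr11:99024140-99024439, minus strand), stand for mitosis.
Rrm2: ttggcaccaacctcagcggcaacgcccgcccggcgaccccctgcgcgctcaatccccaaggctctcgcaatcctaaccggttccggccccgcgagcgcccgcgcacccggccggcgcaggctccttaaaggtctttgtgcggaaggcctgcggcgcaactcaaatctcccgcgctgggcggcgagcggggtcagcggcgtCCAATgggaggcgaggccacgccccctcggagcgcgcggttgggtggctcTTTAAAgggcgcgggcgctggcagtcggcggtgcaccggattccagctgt
Rrm1: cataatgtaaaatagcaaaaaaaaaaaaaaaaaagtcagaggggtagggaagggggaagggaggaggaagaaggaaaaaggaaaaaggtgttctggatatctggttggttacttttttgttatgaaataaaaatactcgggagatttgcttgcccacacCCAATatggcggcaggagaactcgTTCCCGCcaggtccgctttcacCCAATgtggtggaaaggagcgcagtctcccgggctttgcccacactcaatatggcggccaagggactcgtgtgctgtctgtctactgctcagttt
Mcm5: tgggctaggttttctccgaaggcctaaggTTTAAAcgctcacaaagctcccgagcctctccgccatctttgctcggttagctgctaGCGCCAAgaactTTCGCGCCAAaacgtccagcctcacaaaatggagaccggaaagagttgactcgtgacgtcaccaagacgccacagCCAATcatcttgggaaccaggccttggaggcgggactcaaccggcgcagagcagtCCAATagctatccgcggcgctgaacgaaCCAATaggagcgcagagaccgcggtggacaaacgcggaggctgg
Ccnb2: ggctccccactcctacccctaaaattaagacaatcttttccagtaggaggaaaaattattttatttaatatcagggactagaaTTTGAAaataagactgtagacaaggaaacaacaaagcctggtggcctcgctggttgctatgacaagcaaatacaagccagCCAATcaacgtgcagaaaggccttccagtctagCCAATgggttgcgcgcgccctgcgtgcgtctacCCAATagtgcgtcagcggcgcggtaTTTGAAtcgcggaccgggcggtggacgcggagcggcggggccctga
Ube2c: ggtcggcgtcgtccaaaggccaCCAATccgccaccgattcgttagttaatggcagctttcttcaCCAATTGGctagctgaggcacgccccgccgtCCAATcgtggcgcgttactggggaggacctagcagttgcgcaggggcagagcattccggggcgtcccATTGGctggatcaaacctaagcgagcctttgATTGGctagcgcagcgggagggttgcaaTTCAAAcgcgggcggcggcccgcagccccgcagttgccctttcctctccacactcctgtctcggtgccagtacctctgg
Top2a: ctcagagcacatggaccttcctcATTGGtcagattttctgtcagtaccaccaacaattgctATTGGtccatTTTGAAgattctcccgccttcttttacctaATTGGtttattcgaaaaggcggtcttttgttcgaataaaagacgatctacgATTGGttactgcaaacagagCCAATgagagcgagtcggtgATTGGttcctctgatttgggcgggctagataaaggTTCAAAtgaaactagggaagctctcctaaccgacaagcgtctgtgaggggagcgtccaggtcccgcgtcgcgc

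The Ccnb2 window held 2 CHR matches and 3 CCAAT matches, the Top2a window 2 and 6, and the Ube2c window 1 and 6, of which a pair on opposite strands overlaps. The Rrm2 window held 1 CHR match, at its start base, and 1 CCAAT match. The Rrm1 window had 2 CCAAT matches with 1 E2F match between them, and the Mcm5 window had 1 CHR, 3 CCAAT and 3 E2F matches, of which 2 E2F matches overlap. RefSeq promoters were found for 42 of the 53 genes, in 44 windows. A CHR match lay in 81.5% of the 27 windows of mitotic genes and 41.2% of the 17 windows of replication genes, against 27.6% of all 32851 promoters in the table. A CHR and a CCAAT match together lay in 70.4% of mitotic, 29.4% of replication and 10.7% of all windows. E2F matches went the other way, with 14.8% of mitotic, 52.9% of replication and 8.07% of all windows. CCAAT matches, with or without a CHR match, lay in 77.8%, 64.7% and 37.4% in the same order. A match describes the letters in the window and is not a measured binding site.

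The signal of these genes was low. As a gauge of background, the mean signals of 1390 genes for olfactory and vomeronasal receptors were used. Their 95th percentile, called the receptor level below, was a log2 intensity of 4.81. Of the 51 measured genes, 4 had a mean above it in control HG-PIN (Pcna, Ccne1, Cdc20 and Mki67), 2 in T-3Mb-Erg HG-PIN (Ccne1 and Ccna2) and 11 in tumours. The 11 were Pcna, Rrm2, Tk1, Ccne1, Cdk1, Ccna2, Ccnb2, Ube2c, Top2a, Mki67 and Nusap1. Over all 22180 genes the same share was 21.0%, 21.0% and 21.2%, nearly the same in each group. The sizes of the changes given below may be limited by background wherever a mean lies near or under 4.81.

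The arrays differed in spread, and tumour replicate 2 stood apart from the other tumours. Its 95th percentile of log2 intensity over all probe sets was 6.15, against 6.49 and 6.65 in tumour replicates 1 and 3, 6.16 to 6.49 in control HG-PIN and 6.26 to 6.61 in T-3Mb-Erg HG-PIN. The labelled epithelium was checked with 11 measured luminal markers: their mean log2 intensity per array ran from 5.51 to 6.84 in control HG-PIN, from 6.72 to 7.07 in the HG-PIN of T-3Mb-Erg mice and from 4.38 to 4.72 in tumours. In the tumours, 8 of the 11, Epcam and Cdh1 among them, had means at or below the receptor level, so the captured tumours gave little signal for the defining luminal transcripts. The summed intensity of 9 fibroblast markers was 176 to 219 in control HG-PIN, 242 to 640 in T-3Mb-Erg HG-PIN, then 469 to 3335 in tumours, with 6 of 9 means above the receptor level in tumours and Lum, Fbln1 and Dpt at or below it. That of 6 endothelial markers was 77.4 to 108, 98.3 to 108 and 113 to 341, with Kdr, Tek, Emcn and Vwf at or below the receptor level in tumours. Of 9 T and NK cell markers 1, Nkg7, had a mean above the receptor level in each of the 3 groups, and of 5 B and plasma cell markers 1, Jchain, did. The others, with Cd3e, Cd3d, Cd3g, Cd79a and Ms4a1 among them, were at or below it. The mean of 5 basal epithelial markers per array was 5.27 to 5.52 in control HG-PIN, 6.11 to 6.62 in that of T-3Mb-Erg mice and 4.71 to 5.04 in tumours, without overlap. Smooth muscle markers, 6 of them, varied most within T-3Mb-Erg HG-PIN, from 4.87 to 7.33, against 4.65 to 5.06 in control HG-PIN and 4.43 to 6.01 in tumours. Macrophage markers, also 6, lay at 4.06 to 4.26 in control HG-PIN, 4.46 to 4.60 in T-3Mb-Erg HG-PIN and 3.95 to 4.52 in tumours. Their HG-PIN groups did not overlap, and the tumours overlapped with both. The part of these lists in the cell cycle signal was not tested.

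**Figure D1:**
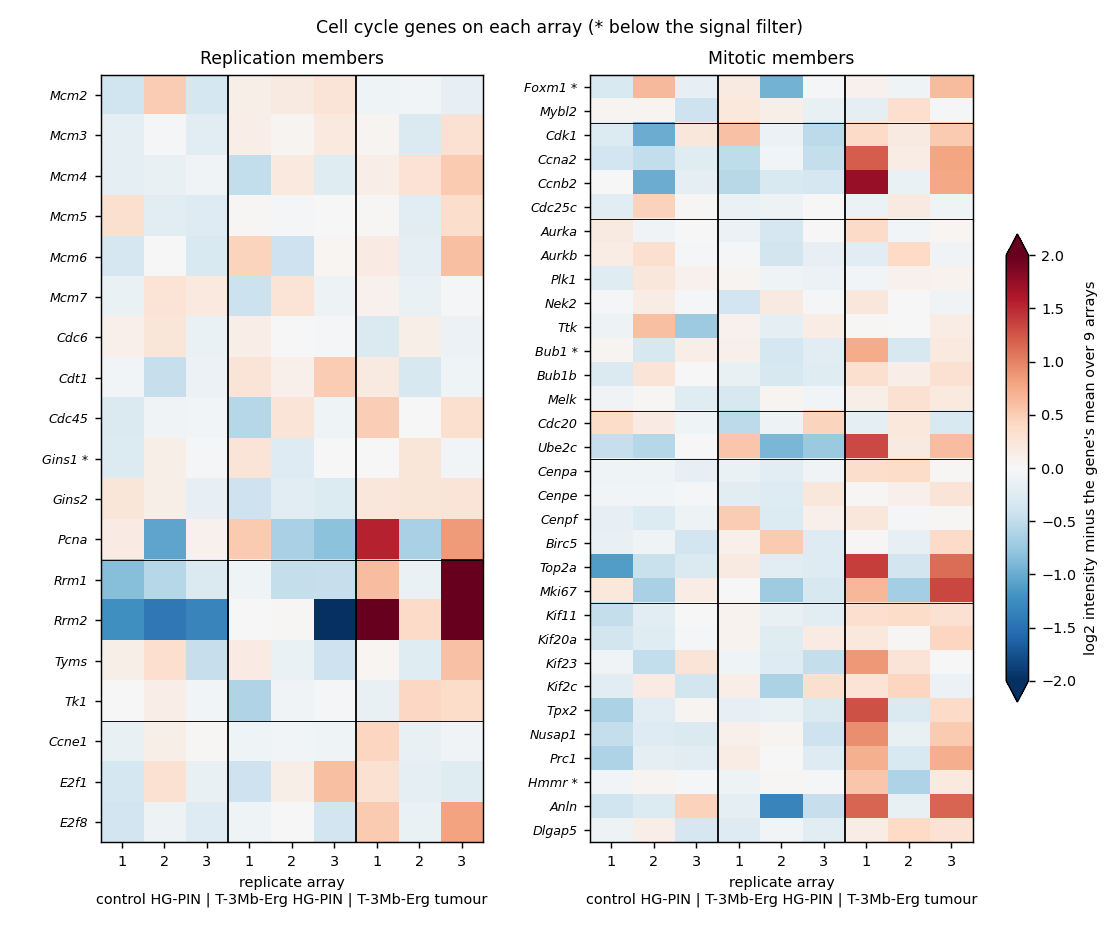
Colour shows the log2 intensity of each measured gene on each array minus that gene's mean over the 9 arrays, with replication genes on the left and mitotic genes on the right, rows ordered by role and columns by group and replicate; genes marked with an asterisk lay below the signal filter. Red cells gather in tumour replicates 1 and 3, led by Rrm2, whose values run past the ends of the colour scale; tumour replicate 2 is paler.

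Over the 3 groups, the cell cycle genes had a median change near 0 between the HG-PIN of both genotypes and stood higher in the tumours, although none passed the test on its own. Between T-3Mb-Erg HG-PIN and control HG-PIN the median log2 change of the 47 tested genes was -0.01, with 22 above 0 (all 16635 genes: 0.00, with 49.5% above 0). From T-3Mb-Erg HG-PIN to tumour it was 0.31, with 38 of 47 above 0 (all genes: -0.01, 48.9%), and from control HG-PIN to tumour 0.30, with 41 of 47 above 0 (all genes: -0.03, 46.3%). Over all 51 measured genes, including those below the filter, the medians of these comparisons were -0.01, 0.31 and 0.27, with 23, 42 and 45 above 0. The comparisons share arrays, so they are not independent of each other.

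At a Benjamini-Hochberg adjusted p under 0.05 over all genes, limma called 0 of 47 in each comparison and 0 by the moderated F test over the 3 groups, against 0.0%, 0.283%, 0.18% and 0.313% of all genes. At an unadjusted p under 0.05 the F test gave 11 of 47 (23.4%), against 7.97% of all genes. The smallest adjusted p of a cell cycle gene was 0.998 between the HG-PIN groups, 0.195 between tumour and T-3Mb-Erg HG-PIN, 0.110 between tumour and control HG-PIN, and 0.154 by the F test, the latter 3 all for Rrm2. The median half-width of the 95% interval of a cell cycle gene's log2 change was 0.54, so that a typical change of the list was not detectable gene by gene with 3 arrays a group.

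At an unadjusted p under 0.05, the cell cycle genes of the tumours lay on the higher side. Between the HG-PIN groups 1 of 47 was higher, Cdt1, and 0 were lower, against 1.83% of all genes higher and 2.27% lower. In tumours against T-3Mb-Erg HG-PIN 13 of 47 (27.7%) were higher and 0 lower, against 3.67% and 3.98% of all genes. They were Mcm4, Gins2, Rrm1, Rrm2, E2f8, Ccna2, Ccnb2, Bub1b, Ube2c, Kif11, Kif23, Anln and Dlgap5. In tumours against control HG-PIN 10 (21.3%) were higher and 0 lower, against 4.74% and 4.59%. These were Rrm1, Rrm2, E2f8, Ccna2, Ccnb2, Ube2c, Top2a, Kif11, Nusap1 and Prc1. Without T-3Mb-Erg HG-PIN replicate 2 the first count was 4, and without tumour replicate 1 it was 7. The second was 5 without control HG-PIN replicate 1, 6 without tumour replicate 1 and 16 without tumour replicate 2. Between the HG-PIN groups Cdt1 was lost without control HG-PIN replicate 3 or tumour replicate 3, and without replicates 1 or 3 of T-3Mb-Erg HG-PIN. Without control HG-PIN replicate 2 it was lost as well, and Mcm2 was the single gene in its place. The genes were listed with earlier results of these arrays known, so these shares are a description and carry no test.

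Genes whose groups of arrays did not overlap were also counted. Between the HG-PIN groups Mcm3, Cdt1 and Top2a were higher without overlap and Gins2 and Aurkb lower, 3 and 2 of 47, against 4.86% and 5.25% of all genes. Tumours lay wholly above T-3Mb-Erg HG-PIN for 11 of 47 (23.4%; all genes 4.97%) and wholly below it for Mcm2 alone (all genes 6.43%). Tumours lay wholly above control HG-PIN for 14 of 47 (29.8%; all genes 6.2%) and wholly below it for 0 (all genes 7.51%).

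Within each mouse the shift was in the same direction, but smaller in the mouse of tumour replicate 2. Tumour minus HG-PIN of the same mouse had a median over the 47 genes of 0.46, 0.21 and 0.41 in the mice of replicates 1, 2 and 3, with 34, 31 and 37 genes above 0 (all genes: 0.00, 0.02 and -0.08). In 3 of 3 mice 20 of the 47 (42.6%) were higher in the tumour and 2, Mcm2 and Cdt1, were lower, against 11.5% and 13.1% of all genes. The mean fibroblast marker level in those tumours was 6.05, 5.16 and 7.21, and the mean endothelial marker level 4.39, 4.0 and 5.01, both lowest in replicate 2 like the cell cycle genes. Smooth muscle markers (4.43), macrophage markers (3.95) and the 95th percentile of the array (6.15) were also lowest in that tumour. Basal, T and NK cell, and B and plasma cell markers were highest there among the tumours, and luminal markers were in between. In control HG-PIN the fibroblast marker level was 4.06 to 4.26. With the spread of each array as a term, the median change of the cell cycle genes was 0.32 from T-3Mb-Erg HG-PIN to tumour and 0.33 from control HG-PIN.

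**Figure D2:**
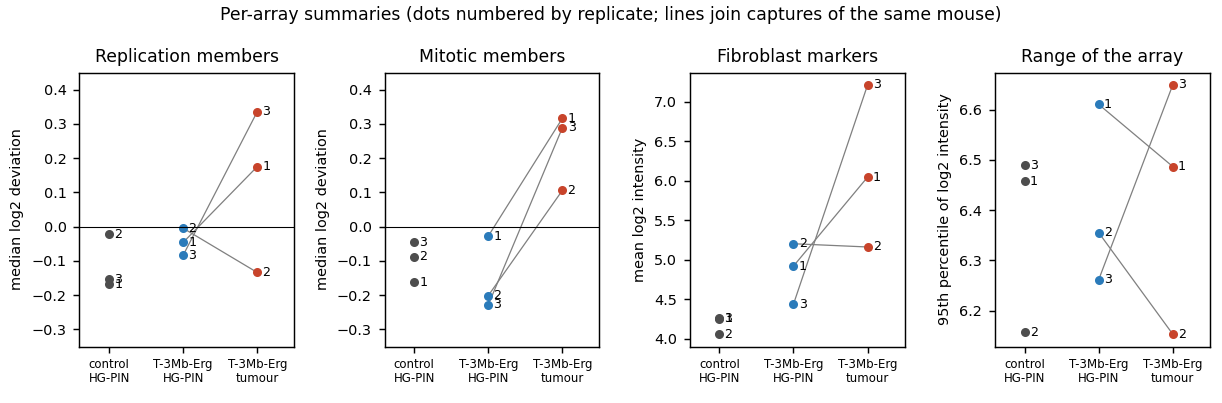
Each dot is 1 array, numbered by replicate; grey lines join the HG-PIN and the tumour of the same mouse. The panels give the median log2 deviation from each gene's 9-array mean over 18 replication genes and over 29 mitotic genes, the mean log2 intensity of 9 fibroblast markers, and the 95th percentile of the array's log2 intensity; mitotic genes stand highest in all 3 tumours (0.32, 0.11 and 0.29), replication genes in tumour replicates 1 and 3 (0.18 and 0.34) but not 2 (-0.13).

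Replication genes were then set beside mitotic genes. The 18 tested replication genes had a median change from T-3Mb-Erg HG-PIN to tumour of 0.21 (13 above 0, from -0.37 to 3.20), and within mice 0.52, -0.10 and 0.41. This median was 0.37 without tumour replicate 2, close to that of the mitotic genes, and 0.14 without tumour replicate 3. The 29 tested mitotic genes had a median of 0.38 (25 above 0, from -0.04 to 1.39), and within mice 0.44, 0.27 and 0.48. In 3 of 3 mice 6 of 18 replication genes and 14 of 29 mitotic genes were higher in the tumour. The difference between the classes was not tested. Against control HG-PIN the medians were 0.17 (15 of 18 above 0) and 0.36 (26 of 29 above 0), where the first was 0.26 without control HG-PIN replicate 2 and 0.30 without tumour replicate 2. Between the HG-PIN groups they were 0.02 (9 of 18) and -0.01 (13 of 29).

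**Figure D3:**
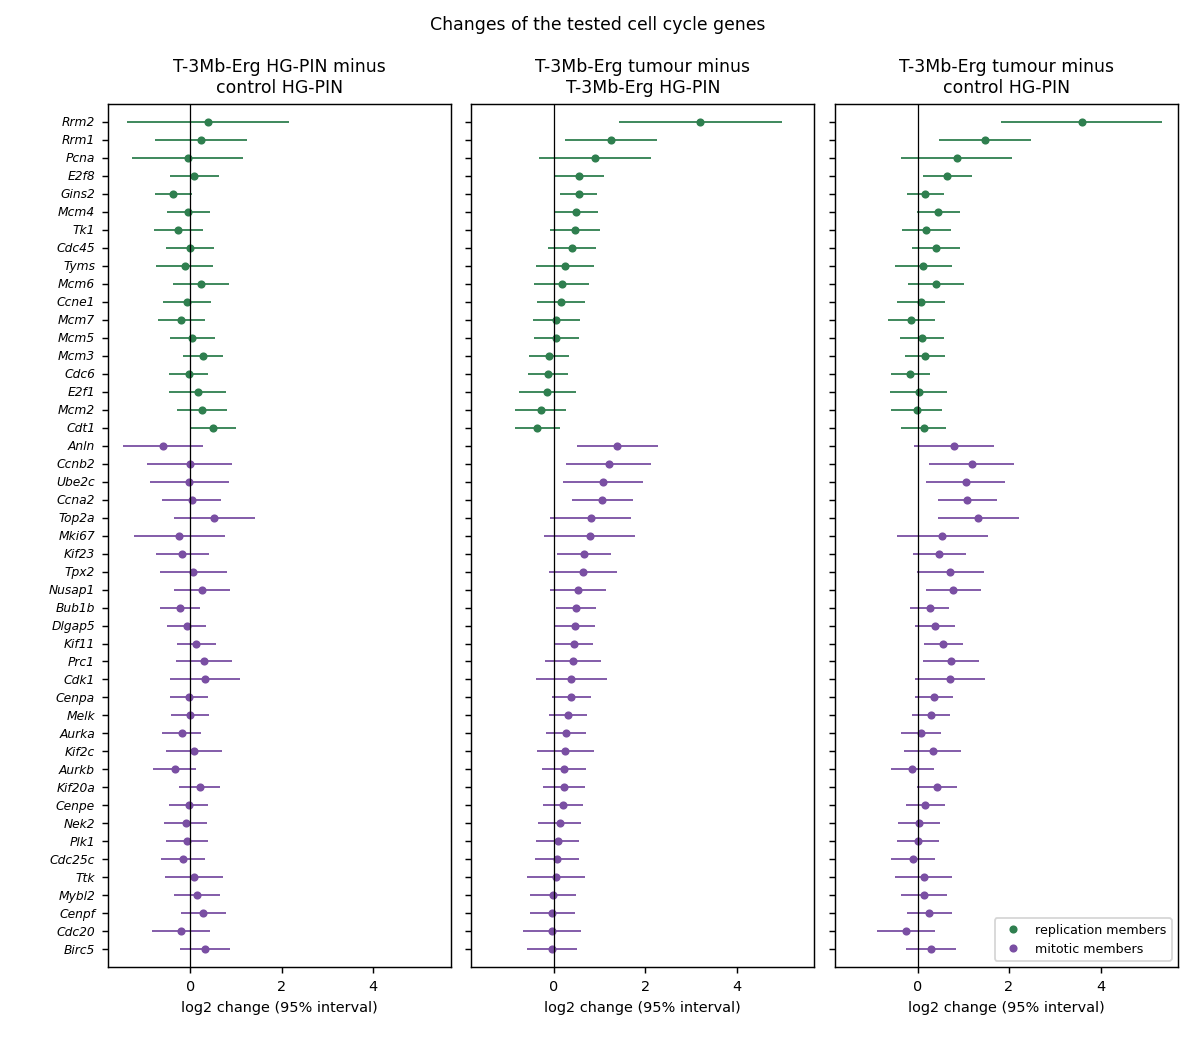
Log2 change of each of the 47 tested genes in the 3 comparisons (dots) with its 95% interval from the limma fit (lines), replication genes in green and mitotic genes in purple, ordered by the change from T-3Mb-Erg HG-PIN to tumour. The dots scatter around 0 in the left panel and lie mostly to the right of it in the other panels, where Rrm2 (3.20 and 3.58) lies farthest out.

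Among the replication genes, those that supply deoxynucleotides had the largest median change. In the accounts that follow, values per array are log2 intensities of replicates 1, 2 and 3 in that order. Rrm2, the small subunit of ribonucleotide reductase, which makes deoxyribonucleotides and limits their supply in S phase, stood at 3.63, 3.43 and 3.53 in control HG-PIN, 4.84, 4.88 and 2.03 in T-3Mb-Erg HG-PIN, then 8.15, 5.23 and 7.96 in tumours. All 3 tumours lay above all 6 HG-PIN arrays, with tumour replicate 2 nearest to them, and T-3Mb-Erg HG-PIN replicate 3 was the lowest of the 9. The group means were 3.53 ± 0.10, 3.92 ± 1.63 and 7.12 ± 1.64 in the same order (SD, n = 3 each). The change to tumour was 3.20 from T-3Mb-Erg HG-PIN (95% interval 1.42 to 4.98, 9.17-fold, adjusted p = 0.195) and 3.58 from control HG-PIN (1.82 to 5.35, 12.0-fold, adjusted p = 0.110). It passed in both comparisons without tumour replicate 2 (4.04, adjusted p = 0.0370, and 4.43, adjusted p = 0.0103) and, over all 9 arrays, with the spread of each array as a term (3.1, adjusted p = 0.0293, and 3.30, adjusted p = 0.0247). A dimmer probe set of Rrm2 gave 2.76, 3.05 and 2.87, then 2.84, 2.86 and 3.12, then 5.0, 3.25 and 5.82, with the same tumours high and the 3 tumours again above all HG-PIN arrays. The low value of T-3Mb-Erg HG-PIN replicate 3 was not seen with that probe set.

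Rrm1, the large subunit of the same enzyme, stood at 2.94, 3.22 and 3.5 in control HG-PIN, 3.70, 3.31 and 3.32 in T-3Mb-Erg HG-PIN, then 4.41, 3.65 and 6.02 in tumours. Tumour replicate 3 was far above the rest, and tumour replicate 2 lay just under the highest HG-PIN array. The change to tumour was 1.25 from T-3Mb-Erg HG-PIN (95% interval 0.24 to 2.26, adjusted p = 0.481) and 1.48 from control HG-PIN (0.47 to 2.48, adjusted p = 0.267; 2.01 with adjusted p = 0.0305 without tumour replicate 2). Without tumour replicate 3 these were 0.56 and 0.79. Tk1, the thymidine kinase that salvages thymidine, stood at 4.66, 4.80 and 4.61, then 4.06, 4.59 and 4.62, then 4.52, 5.09 and 5.03, and its tumours overlapped with the HG-PIN groups. Within mice Tk1 was higher in the tumour by 0.46, 0.49 and 0.41, an even difference that reached a change of 0.46 with an interval from -0.09 to 1.0. Tyms, thymidylate synthase, had a change of 0.25 (-0.38 to 0.88). All 4 genes of nucleotide supply thus stood above 0, with a median of 0.85 against T-3Mb-Erg HG-PIN and 0.84 against control HG-PIN, and 2 of 4 below and 2 above 0 between the HG-PIN groups.

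Origin licensing and fork genes were more mixed, with a median change from T-3Mb-Erg HG-PIN to tumour of 0.05 over 11 tested genes, 7 of them above 0. Mcm2, a subunit of the replicative helicase, stood at 4.02, 4.93 and 4.07 in control HG-PIN, 4.53, 4.60 and 4.67 in T-3Mb-Erg HG-PIN, then 4.33, 4.37 and 4.26 in tumours. It was the gene of the list whose tumours lay wholly below the HG-PIN of the same genotype, by -0.28 (95% interval -0.84 to 0.27, adjusted p = 0.940). Mcm3 was at 3.55, 3.70 and 3.52, then 3.87, 3.79 and 3.93, then 3.79, 3.46 and 4.04, higher without overlap in T-3Mb-Erg HG-PIN than in control HG-PIN by 0.27 (-0.16 to 0.71). Mcm5 lay at 4.19, 3.66 and 3.61, then 3.89, 3.84 and 3.87, then 3.89, 3.64 and 4.23, without any order of the groups. Mcm4, by contrast, was 0.49 higher in tumours than in T-3Mb-Erg HG-PIN (0.02 to 0.97, adjusted p = 0.624). Mcm6 and Mcm7 had changes of 0.17 and 0.05.

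Cdt1, the licensing factor that loads the helicase with Cdc6, was the cell cycle gene with the smallest unadjusted p between the HG-PIN groups (0.0443). It stood at 4.34, 3.93 and 4.28 in control HG-PIN, 4.65, 4.50 and 4.91 in T-3Mb-Erg HG-PIN, then 4.58, 4.07 and 4.31 in tumours. The HG-PIN groups did not overlap and differed by 0.50 (95% interval 0.02 to 0.99, adjusted p = 0.998), while the tumours lay between and across them. Gins2, a subunit of the GINS complex that joins the helicase at firing origins, had the opposite order of groups. Its values were 4.19, 4.08 and 3.79, then 3.55, 3.73 and 3.69, then 4.18, 4.19 and 4.21, so that T-3Mb-Erg HG-PIN was below both other groups without overlap. Its change was -0.37 between the HG-PIN groups (-0.77 to 0.03, adjusted p = 0.998) and 0.54 to tumour (0.14 to 0.94, adjusted p = 0.422), neither past the test. Cdc45, the third component of the active helicase, stood 0.40 higher in tumours than in both HG-PIN groups, with intervals that span 0.

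Pcna, the sliding clamp of the DNA polymerases, stood at 5.25, 4.03 and 5.17 in control HG-PIN, 5.61, 4.43 and 4.25 in T-3Mb-Erg HG-PIN, then 6.63, 4.44 and 5.94 in tumours. Tumour replicates 1 and 3 were the highest of the 9 arrays, and tumour replicate 2 differed from the HG-PIN of its mouse by 0.00. The change to tumour of 0.90 from T-3Mb-Erg HG-PIN (95% interval -0.32 to 2.12, adjusted p = 0.824) did not pass. Of the genes that govern entry into S phase, Ccne1, which encodes cyclin E1, was at 4.86, 5.13 and 5.03, then 4.92, 4.96 and 4.93, then 5.45, 4.87 and 4.95. All 9 values lay above the receptor level, and only tumour replicate 1 stood out. E2f1, an activator of S phase genes, overlapped in all groups, at 3.69, 4.35 and 3.90, then 3.63, 4.16 and 4.64, then 4.34, 3.86 and 3.80. E2f8, a repressor of the same family that is itself induced in S phase, was 0.56 higher in tumours than in T-3Mb-Erg HG-PIN (0.02 to 1.10, adjusted p = 0.627) and 0.65 higher than in control HG-PIN (0.11 to 1.18, adjusted p = 0.407).

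**Figure D4:**
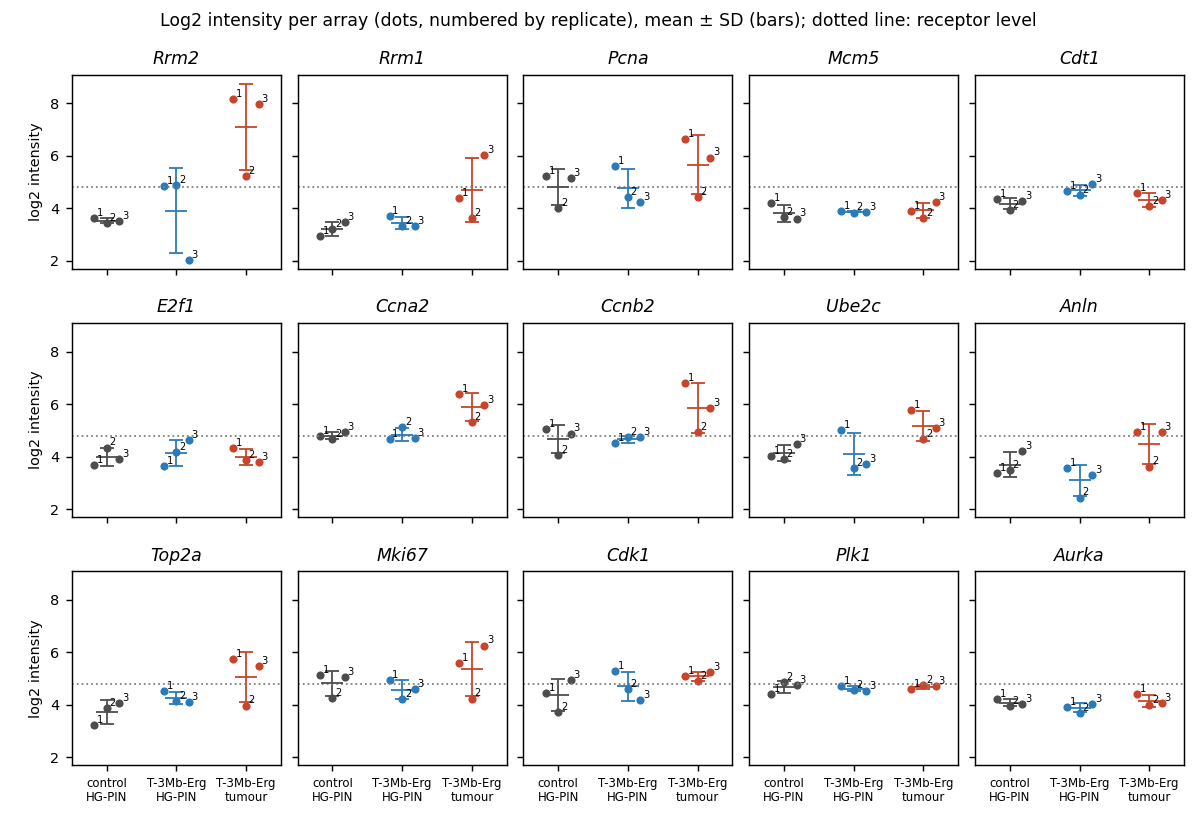
Log2 intensity of 15 cell cycle genes on each array (dots, numbered by replicate) with the group mean and SD (bars, n = 3 each); the dotted line is the receptor level of 4.81. All tumours stand above all HG-PIN arrays for Rrm2 and Ccna2. The tumour means of Ccnb2, Ube2c and Anln are higher, with overlap with an HG-PIN array, and the groups of Mcm5, E2f1, Plk1 and Aurka overlap.

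Among the mitotic genes, both measured cyclins stood higher in tumours. Ccna2, cyclin A2, which drives S phase and entry into mitosis, stood at 4.79, 4.69 and 4.93 in control HG-PIN, 4.67, 5.12 and 4.70 in T-3Mb-Erg HG-PIN, then 6.38, 5.33 and 5.96 in tumours. Every tumour lay above every HG-PIN array. The group means were 4.80 ± 0.12, 4.83 ± 0.25 and 5.89 ± 0.53 in the same order (SD, n = 3 each). The change to tumour was 1.06 from T-3Mb-Erg HG-PIN (95% interval 0.40 to 1.72, 2.08-fold, adjusted p = 0.278) and 1.09 from control HG-PIN (0.44 to 1.74, 2.13-fold, adjusted p = 0.192). The latter was 1.34 (adjusted p = 0.0414) without tumour replicate 2 and 1.04 (adjusted p = 0.474) without tumour replicate 3. Ccnb2, cyclin B2, stood at 5.06, 4.08 and 4.88, then 4.50, 4.76 and 4.73, then 6.8, 4.93 and 5.84. Its tumours lay above all T-3Mb-Erg HG-PIN arrays, replicate 2 by little, and 1 control array lay above that tumour. The changes were 1.19 from each HG-PIN group (0.26 to 2.13, adjusted p = 0.454, and 0.26 to 2.11, adjusted p = 0.357), and T-3Mb-Erg and control HG-PIN differed by -0.01.

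Cdk1, the kinase these cyclins activate, stood at 4.45, 3.73 and 4.96 in control HG-PIN, 5.31, 4.61 and 4.19 in T-3Mb-Erg HG-PIN, then 5.11, 4.90 and 5.24 in tumours. The tumours were close together and above the receptor level, while 1 array of each HG-PIN group lay within or above their range. The change was 0.38 from T-3Mb-Erg HG-PIN (95% interval -0.39 to 1.15) and 0.71 from control HG-PIN (-0.05 to 1.47). Cdc25c, the phosphatase that activates Cdk1, had a change of 0.07 to tumour and all 9 values below the receptor level. The transcription factor Foxm1, below the filter, ranged from 2.17 to 3.77 with no order of the groups, and Mybl2, which encodes B-Myb, had a change of -0.02 to tumour.

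Mitotic kinases and checkpoint genes had small changes. All 7 tested were above 0 from T-3Mb-Erg HG-PIN to tumour, with a median of 0.22 and none above 0.49, and all but Ttk were below 0 between the HG-PIN groups. Aurka, the kinase of spindle poles, stood at 4.23, 3.97 and 4.04, then 3.93, 3.70 and 4.04, then 4.42, 3.99 and 4.08, with overlap in each comparison. Aurkb, the kinase of the chromosomal passenger complex, stood at 4.16, 4.34 and 3.98, then 3.98, 3.64 and 3.85, then 3.80, 4.41 and 3.93, lower in T-3Mb-Erg than in control HG-PIN by -0.34 (95% interval -0.81 to 0.14). Plk1, which acts in centrosome maturation and mitotic exit, stood at 4.42, 4.89 and 4.76, then 4.72, 4.58 and 4.54, then 4.61, 4.75 and 4.73. Its change to tumour from T-3Mb-Erg HG-PIN was 0.08, with an interval from -0.39 to 0.55. Bub1b, the checkpoint kinase BubR1, was 0.49 higher in tumours (0.06 to 0.92, adjusted p = 0.543) and higher in each mouse by 0.46, 0.47 and 0.54. Bub1, below the filter, stood at 2.95, 2.56 and 3.02, then 3.0, 2.53 and 2.66, then 3.63, 2.56 and 3.09.

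The genes that promote anaphase parted from each other. Ube2c, which loads ubiquitin for the anaphase-promoting complex, stood at 4.02, 3.90 and 4.48 in control HG-PIN, 5.03, 3.57 and 3.73 in T-3Mb-Erg HG-PIN, then 5.79, 4.66 and 5.09 in tumours. All tumours lay above control HG-PIN, and T-3Mb-Erg HG-PIN replicate 1 was the 1 array of its group within the tumour range. It was higher in the tumour of each mouse, by 0.76, 1.09 and 1.36, with a change of 1.07 (95% interval 0.20 to 1.94, adjusted p = 0.484). Cdc20, the activator of the same complex, stood at 5.23, 5.03 and 4.77, then 4.34, 4.76 and 5.31, then 4.66, 5.07 and 4.55, with a change of -0.04 (-0.68 to 0.59).

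Of the chromosome and kinetochore genes, Top2a, which untangles sister chromatids, showed a stepwise order of means, 3.73 ± 0.45 in control HG-PIN, 4.26 ± 0.24 in T-3Mb-Erg HG-PIN, then 5.06 ± 0.94 in tumours (SD, n = 3 each). Its arrays stood at 3.23, 3.90 and 4.07, then 4.54, 4.14 and 4.10, then 5.73, 3.98 and 5.47. Tumour replicate 2 lay inside the range of control HG-PIN and below every T-3Mb-Erg HG-PIN array, so the order of means did not hold in its mouse. The change from control HG-PIN to tumour was 1.33 (95% interval 0.45 to 2.21, adjusted p = 0.257). It was 1.88 (adjusted p = 0.00952) without tumour replicate 2 and 1.10 (adjusted p = 0.552) without tumour replicate 3. From T-3Mb-Erg HG-PIN to tumour it was 1.35 (adjusted p = 0.0956) and 0.57 (adjusted p = 0.647) without the same arrays. Mki67, the gene of the proliferation antigen Ki-67, stood at 5.14, 4.28 and 5.07, then 4.94, 4.22 and 4.60, then 5.59, 4.25 and 6.27. Tumour replicates 1 and 3 were the highest of the 9 arrays and tumour replicate 2 the second lowest, so the change of 0.78 from T-3Mb-Erg HG-PIN had an interval from -0.22 to 1.78 (adjusted p = 0.806). Birc5, the inhibitor-of-apoptosis protein survivin of the passenger complex, stood at 3.15, 3.22 and 2.93, then 3.41, 3.83 and 3.05, then 3.32, 3.15 and 3.69, all below the receptor level. Cenpa, the centromeric histone, had tumours wholly above both HG-PIN groups, by 0.38 and 0.36, but adjusted p = 0.719 and 0.629.

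All 10 measured spindle and cytokinesis genes, with or without the filter, had a difference of means above 0 in tumours against both HG-PIN groups, with medians of 0.45 and 0.52. Of the 9 tested, Kif2c, a depolymerase of microtubule ends (0.25 and 0.33), passed the filter only through its tumour values. Anln, the contractile ring scaffold anillin, stood at 3.37, 3.49 and 4.23 in control HG-PIN, 3.57, 2.44 and 3.31 in T-3Mb-Erg HG-PIN, then 4.92, 3.62 and 4.94 in tumours. Tumours lay above all T-3Mb-Erg HG-PIN arrays, by a small margin for replicate 2, and were higher in each mouse by 1.36, 1.18 and 1.63. The change was 1.39 (95% interval 0.51 to 2.27, 2.62-fold, adjusted p = 0.291), and its adjusted p was 0.0749, the smallest of the list, in a fit with each mouse as a fixed block. Kif11, the motor that pushes spindle poles apart, stood at 3.12, 3.38 and 3.58, then 3.66, 3.45 and 3.36, then 3.92, 3.95 and 3.90. The tumours, between 3.90 and 3.95, lay close together and above all HG-PIN arrays, but the change of 0.56 from control HG-PIN (0.14 to 0.99) had an adjusted p of 0.336, at levels below the receptor level throughout.

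Kif23, the motor of the central spindle, and Dlgap5, a microtubule-associated protein of the spindle, were likewise above all T-3Mb-Erg HG-PIN arrays, by 0.65 and 0.46. Tpx2, Nusap1 and Prc1, which organise spindle microtubules, stood 0.65, 0.52 and 0.42 above T-3Mb-Erg HG-PIN and 0.72, 0.78 and 0.73 above control HG-PIN. For each of these 3 genes tumour replicate 2 lay at or below the HG-PIN of its mouse, by -0.16, -0.20 and -0.30. Hmmr, a spindle and hyaluronan-binding protein, stayed below the filter, between 1.84 and 3.0.

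Leaving out tumour replicate 2 changed which genes passed. In tumours against T-3Mb-Erg HG-PIN Rrm2 then passed, and against control HG-PIN Ccna2, Prc1, Rrm1, Rrm2 and Top2a did, 5 of 47. Over all genes 110 and 261 were then called, against 47 and 30 with that array in the same fit. Those counts rested on other arrays too: the first was 0 without tumour replicate 1 and the second 0 without control HG-PIN replicate 3. The counts of cell cycle genes higher at an unadjusted p under 0.05 became 15 and 16. With each mouse as a fixed block, 26 genes were called in tumours against T-3Mb-Erg HG-PIN, none of them a cell cycle gene, with 10 cell cycle genes higher at an unadjusted p under 0.05.

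The promoter groups can be set beside these changes. Among tested genes with a RefSeq promoter, the 26 with a CHR match had a median change from T-3Mb-Erg HG-PIN to tumour of 0.39 (22 above 0) and the 13 without one of 0.13 (8 above 0). For both CHR and CCAAT it was 0.40 for the 21 with them and 0.16 for the 18 others. The 10 genes with an E2F match, such as Rrm1 and Mcm5 shown above, had a median of 0.11 and the 29 without of 0.31. The differences were not tested, and promoter motifs and gene class go together in these genes.

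Other cell cycle genes were listed by function, and limma called 0 of them in each comparison. Of 39 other replication genes 34 were tested, with a median change from T-3Mb-Erg HG-PIN to tumour of 0.02 and 17 above 0, and 0 of them at an unadjusted p under 0.05. Those with the smallest p were Dbf4, the activator of the Cdc7 kinase (0.68, adjusted p = 0.666), and Gins4, another GINS subunit (0.85, adjusted p = 0.681). Against control HG-PIN Slbp, which binds histone mRNA, was higher by 0.94 (adjusted p = 0.195) and Rpa3, a subunit of the single-strand binding protein, lower by -0.80 (adjusted p = 0.491), the only 2 of 34 at an unadjusted p under 0.05. Of all genes, 4.74% were higher and 4.59% lower at that p in the same comparison. Of 55 other mitotic genes 38 were tested, with medians of 0.14 (30 above 0) and 0.25 (29 above 0) in tumours against T-3Mb-Erg and control HG-PIN. At an unadjusted p under 0.05, 5 and 9 of the 38 were higher in tumours and 0 lower, against 3.67% and 4.74% of all genes higher and 3.98% and 4.59% lower. Nuf2 and Knl1, which tether microtubules at the kinetochore, stood 0.55 and 0.85 above T-3Mb-Erg HG-PIN (adjusted p = 0.454 and 0.521), and Smc2, a condensin subunit, and Ndc80 stood 0.88 and 0.59 above control HG-PIN (adjusted p = 0.209 and 0.257). Ndc80 was also the gene with the smallest unadjusted p of that list between the HG-PIN groups (0.46, adjusted p = 0.998), where it alone was higher at an unadjusted p under 0.05, and of the replication genes Fen1, the flap endonuclease, alone was lower (-0.71, adjusted p = 0.998). These are single genes of 38 and 34 tested, against 1.83% of all genes higher and 2.27% lower.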

How the data were processed

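Per the labels' protocols, RNA of 9 laser captures from fixed prostate sections was extracted, amplified with the NuGEN Ovation system and hybridised to 1-channel Affymetrix mouse arrays. The deposited values are intensities on a linear scale, from 1.36 to 13922 for 41345 probe sets, with array medians of 13.6 to 15.4. How the authors corrected the background, summarised probes and normalized the intensities is not given in the sources used here; the changes rest on that step. RNA from fixed tissue is fragmented and scarce, which can lower signal and widen the spread between arrays. Arrays have no read depth, and their number, 3 a group, limits the precision.

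Names came from the platform's annotation, updated by Entrez identifier with a RefSeq table of GRCm38.p6: 23521 had 1 symbol (23328 with a match), 1814 several and 16010 none, and those with several or none were not named. The annotation's build is not stated, so no probe coordinates are given. The brightest probe set by mean log2 was kept for each symbol, which mattered for 1082. Intensities were log2-transformed (floor 1, which 0 values needed). The 25% of genes with the dimmest mean, log2 below 3.25, were then left out.

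Group means over all 9 arrays were fitted with limma 3.58.1 (R 4.3.3), with the mouse as a random block and eBayes with trend. Benjamini-Hochberg adjustment covered all genes tested, and adjusted p-values and 95% intervals come from this fit. The labels' mouse identifiers tie tumour to HG-PIN. A part of the genotype common to all groups is not reported here. Deviations of tumour and HG-PIN of 1 mouse from their group means correlated at 0.17, 0.10 and -0.30 (consensus in the fit -0.01). The fit was tested on simulated data. The members, lists and rules were chosen with earlier results of these data known. Values per array are given for a core of genes by role and for the 5 with the smallest unadjusted p in each comparison, and for other lists the 2 with the smallest p. Alternatives changed the filter, scaling, pseudocount, probe set rule, block and arrays. Promoters were searched in Python 3.11.15, and figures were drawn with matplotlib 3.10.9.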

Additional observations from a re-analysis of the deposited data

How the results depend on the processing

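No cell cycle gene passed the reported test, and the count of passing genes depended on single arrays. Signal over background was low for most of these genes, and 3 arrays a group limit the precision. The alternative without the narrowest array of each group and the counts at an unadjusted p under 0.05 were chosen after seeing the data. Where a value moved, the cause was not tested.

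Between T-3Mb-Erg and control HG-PIN limma called 0 genes, against 4 with the arrays of both groups only, 7 with the spread of each array as a term and 4 without the narrowest array of each group (control replicate 2, T-3Mb-Erg HG-PIN replicate 3 and tumour replicate 2). Between tumour and T-3Mb-Erg HG-PIN it called 47 genes, against 84 after quantile normalization, 18 with log2 of the value plus 16, 194 with the spread term and 182 without the narrowest arrays. Between tumour and control HG-PIN it called 30, against 47 above the receptor level only, 89 after quantile normalization, 50 centred on the 75th percentile, 7 with plus 16, 7 with both groups only, 196 with the spread term and 260 without the narrowest arrays. The F test called 52, against 80, 14, 208 and 242 under quantile normalization, plus 16, the spread term and without the narrowest arrays.

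The replicate block, with the mouse as a fixed term, could be fitted for tumour against T-3Mb-Erg HG-PIN only. It called 26 genes in place of 47 and 0 cell cycle genes. No paired fit was possible for the other comparisons, because control HG-PIN came from other mice.

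Cell cycle genes called, 0 in the reported test, were 1 (Rrm2) in tumour against T-3Mb-Erg HG-PIN with the spread term, and 1 (Rrm2) without the narrowest arrays. Against control HG-PIN they were 1 (Rrm2) and 2 (Rrm2 and Top2a), and by the F test 1 and 2. The counts higher at an unadjusted p under 0.05 changed between the HG-PIN groups from 1, Cdt1. They became 0 with no filter, 0 above the receptor level only and 2 (Mcm2 and Rrm2) without the narrowest arrays. Above the receptor level, where few of the genes remain, they became 3 in each comparison with tumours, from 13 and 10.

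The median change of the cell cycle genes between the HG-PIN groups was 0.051 without the narrowest arrays, and that of replication genes was -0.051 above the receptor level and 0.10 without the narrowest arrays, and that of mitotic genes -0.11 above the receptor level. From T-3Mb-Erg HG-PIN to tumour the median was 0.90 above the receptor level and 0.16 with plus 16, with 0.90 for replication genes and 0.92 and 0.19 for mitotic genes. Against control HG-PIN it was 0.85, 0.14 and, without the narrowest arrays, 0.44, with 0.85 for replication genes and 0.81, 0.21 and 0.46 for mitotic genes. The medians above the receptor level are over 7 genes. Of these, Rrm2 and Ccnb2 have a mean above it in tumours only. Pcna and Mki67 lie below it in the mean over the HG-PIN arrays of both genotypes. Rrm2, Ccnb2, Pcna and Mki67 so passed through the group where they are high. The medians of 0.90 and 0.85, over all and over replication genes, are the changes of Pcna itself.

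Single genes also reversed. Between the HG-PIN groups these were Mcm5 (-0.035) and Plk1 (0.062) without the narrowest arrays, Ccna2 with the spread term (-0.0027), and Ccnb2 after quantile normalization (0.036) and centred on the 75th percentile (0.028). From T-3Mb-Erg HG-PIN to tumour Mcm3 (0.080), E2f1 (0.18) and Cdc20 (0.056) did without the narrowest arrays. Against control HG-PIN Mcm2 did with the spread term (0.036) and without the narrowest arrays (0.25), and Plk1 after quantile normalization (-0.0099).

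Leaving out each array in turn gave 0 to 6 genes called between the HG-PIN groups, 0 (without tumour replicate 1) to 110 (without tumour replicate 2) for tumour against T-3Mb-Erg HG-PIN, 0 (without control HG-PIN replicate 3) to 261 (without tumour replicate 2) against control HG-PIN, and 0 to 142 by the F test. Cell cycle genes called ran from 0 to 1, 0 to 5 and, by the F test, 0 to 2 in the comparisons with tumours, in each case above 0 without tumour replicate 2 only. Those at an unadjusted p under 0.05 ran from 0 to 1, 4 to 15 and 5 to 16. The median change between the HG-PIN groups ran from -0.0077 to 0.065, and that of replication genes from 0.020 to 0.090. From T-3Mb-Erg HG-PIN to tumour the replication median ran from 0.14 to 0.37 and the mitotic from 0.27 to 0.39, and against control HG-PIN from 0.14 to 0.30 and from 0.29 to 0.38.

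Reversals with 1 array left out, as ranges, were between the HG-PIN groups Mcm5 (-0.055 to 0.23), Pcna (-0.55 to 0.25), Rrm2 (-0.16 to 1.46), E2f1 (-0.11 to 0.40), Ccna2 (-0.053 to 0.11), Ccnb2 (-0.31 to 0.19), Plk1 (-0.21 to 0.026), Cdc20 (-0.49 to 0.035) and Mki67 (-0.52 to 0.065). From T-3Mb-Erg HG-PIN to tumour they were Mcm3 (-0.23 to 0.056), Mcm5 (-0.10 to 0.19), Ccne1 (-0.026 to 0.26), E2f1 (-0.37 to 0.13), Cdc20 (-0.28 to 0.24) and Birc5 (-0.28 to 0.13). Against control HG-PIN they were Mcm2 (-0.18 to 0.28), Mcm5 (-0.051 to 0.29), Ccne1 (-0.10 to 0.19), E2f1 (-0.12 to 0.21), Aurka (-0.052 to 0.19) and Plk1 (-0.13 to 0.11). In no such alternative did the median change of the cell cycle genes, of the replication genes or of the mitotic genes to tumour fall below 0.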

Other observations

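Genes whose products hold cells before S phase had median changes above 0 in both comparisons with control HG-PIN, though limma called 0 of them in each comparison. Of 7 CDK inhibitor genes, 6 had a change above 0 in T-3Mb-Erg HG-PIN against control HG-PIN, with a median of 0.29 (all genes: -0.004, with 49.5% above 0). The median was -0.17 from T-3Mb-Erg HG-PIN to tumour and 0.36 from control HG-PIN to tumour (all genes: -0.01 and -0.03). Cdkn2c, which encodes the CDK4 and CDK6 inhibitor p18, stood at 3.99, 3.70 and 4.22 in control HG-PIN, then 4.69, 4.58 and 4.37 in T-3Mb-Erg HG-PIN, then 4.61, 4.33 and 4.72 in tumours (log2 intensity of replicates 1, 2 and 3). Control HG-PIN lay below both other groups without overlap, by 0.57 (adjusted p = 0.998) and 0.58 (adjusted p = 0.383). Of all genes, 4.86% and 6.2% were higher without overlap in these comparisons. Cdkn1c, which encodes p57, stood at 4.42, 4.29 and 4.05, then 4.82, 4.59 and 4.55, then 4.48, 5.07 and 5.51, again with control HG-PIN lowest (0.40, adjusted p = 0.998, and 0.77, adjusted p = 0.348). From T-3Mb-Erg HG-PIN to tumour the smallest unadjusted p were those of Cdkn1b, the p27 gene (0.68, adjusted p = 0.771), and Cdkn2b, the p15 gene (-0.44, adjusted p = 0.843).

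Of 20 genes for G1 cyclins, CDKs, pocket proteins and other E2F factors, 18 were tested, with medians of -0.02, 0.29 and 0.13 in the 3 comparisons. Tfdp1, the DNA-binding partner of E2F factors, stood at 4.83, 4.75 and 5.08 in control HG-PIN, then 4.80, 4.82 and 4.83 in T-3Mb-Erg HG-PIN, then 5.85, 4.87 and 6.17 in tumours, with tumour replicate 2 close to the HG-PIN arrays (0.81, adjusted p = 0.532, and 0.75, adjusted p = 0.492). Cdk2, the kinase of cyclins E and A, stood at 4.76, 5.15 and 4.80, then 3.89, 4.38 and 4.62, then 4.86, 4.74 and 4.86, with T-3Mb-Erg HG-PIN below both other groups without overlap (-0.61, adjusted p = 0.998, and 0.53, adjusted p = 0.668). Of all genes, 5.25% were lower and 4.97% higher without overlap in these comparisons. Ccnd2, which encodes cyclin D2, stood 0.75 higher in T-3Mb-Erg than in control HG-PIN (adjusted p = 0.998), and Skp2, which targets p27 for degradation, 0.41 higher in tumours than in control HG-PIN (adjusted p = 0.631).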
